A study of Mus musculus with 90 samples.

Results

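Macrophages of the mouse line RAW 264.7 received lipopolysaccharide plus interferon gamma (LPS+IFG) or lipopolysaccharide alone (LPS) for 2 h, and the question is what interferon gamma adds to the response to LPS. Groups were taken from the array labels, and 12 of the 90 arrays of the series belong to this comparison: 3 numbered sets of LPS+IFG and 3 of LPS, each set hybridised in both dye orientations against RNA of untreated cells of the same time. LPS was given at 100 ng/ml in both groups and interferon gamma at 5 nM in LPS+IFG. Lipid binding protein at 100 pM is listed for LPS alone and not for LPS+IFG, so that its absence and the presence of interferon gamma cannot be told apart between these groups. The same holds below for the comparisons with 1 h and 4 h and with the sum of the single agents. LPS+2MA (LPS with 500 µM 2-methyl-thio-ATP, an ATP analogue) is listed without lipid binding protein, like LPS+IFG. Cells with interferon gamma alone (IFG, 5 nM, 2 h) are the remaining group used. The labels do not say whether sets were separate cultures or whether treatments shared untreated RNA. SE and p-values rest on a spread between sets that is pooled over all 15 conditions and may be technical. They are not the spread of the set values printed beside them.

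LPS, which coats Gram-negative bacteria, is sensed by Toll-like receptor 4, which acts through the adaptors MyD88 and TRIF to activate NF-kB, MAP kinases and the transcription factor IRF3. The induced interferon beta then acts back on the cells. Interferon gamma binds its own receptor, which signals through Janus kinases to GAS elements in promoters, and induced IRF1 binds interferon-stimulated response elements (ISRE). In macrophages the pair of signals is known for classical activation, with nitric oxide synthesis, antigen presentation and killing of intracellular microbes.

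Values are log2 ratios of treated over untreated RNA, given for each set as the mean of its dye-swapped arrays, and a difference is LPS+IFG minus LPS on that log2 scale. In which direction the ratio runs is not given by the labels. It was taken as Cy5 over Cy3, which puts genes known to be raised by LPS above 0 in the LPS sets (Il1b 4.58 ± 0.20, Tnf 3.87 ± 0.16, SD, n = 3) and genes known to be raised by interferon gamma above 0 in the IFG sets (Cxcl9 4.00 ± 0.21, Irf1 3.67 ± 0.06), so every direction below is likely and not known. Ratios carry no expression level, and in bulk RNA fewer cells of a type and less RNA per cell cannot be told apart. The label of a macrophage line could therefore not be checked by levels. Of 12 macrophage lineage markers 8 were measured, and apart from the Fc receptor Fcgr3 their differences lay between -0.23 and 0.21. On the 12 arrays 7.88 to 10.6% of probes were listed at 0 and treated as missing. The third LPS set stood apart in genes of the interferon response. Of 19 measured antiviral interferon-stimulated genes, 14 had their lowest LPS value in that set, against 29.1% of 11419 features with a value in every LPS set, and the median of the 19 was 0.85 there beside 1.95 and 1.97 in the other LPS sets. Their medians in the LPS+IFG sets were 2.57, 2.01 and 1.77. Differences without the third LPS set are given beside some of the genes they touch. A gene given without one is not thereby unaffected.

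Of 11600 features measured (9760 genes and 1840 probes without a single gene name), 101 were higher with LPS+IFG (0.871%) and 8 were lower (0.069%). A call needed an adjusted p under 0.05 in limma (Benjamini-Hochberg, over all features) and means at least 2-fold apart, a difference of 1. By adjusted p alone 222 were higher (1.91%) and 72 lower (0.621%). The 3 LPS+IFG sets lay above the 3 LPS sets without overlap in 100 of the 101, and below them in 8 of 8; over all features 6.15% lay wholly above and 5.15% wholly below. The median difference was 1.53 among the 101 and 0.01 over all features. A 4-fold difference was reached by 22 features and an 8-fold one by 7. With LPS alone 18 of the 101 were at least 2-fold above the untreated level in mean, against 1.84% of all features. A further 82 were within 2-fold of it, and 1, Tmem51, was at least 2-fold below it. With IFG alone 60 of the 101 were at least 2-fold above it in mean (1.06% of all features). Within 2-fold of the untreated level with each agent alone were 36. The share of all features within 2-fold was not counted, so the 82 and the 36 are not read as particular to the 101. Without the third LPS set 88 features were higher and 11 lower, and 89 of the 109 calls were shared.

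**Figure D1:**
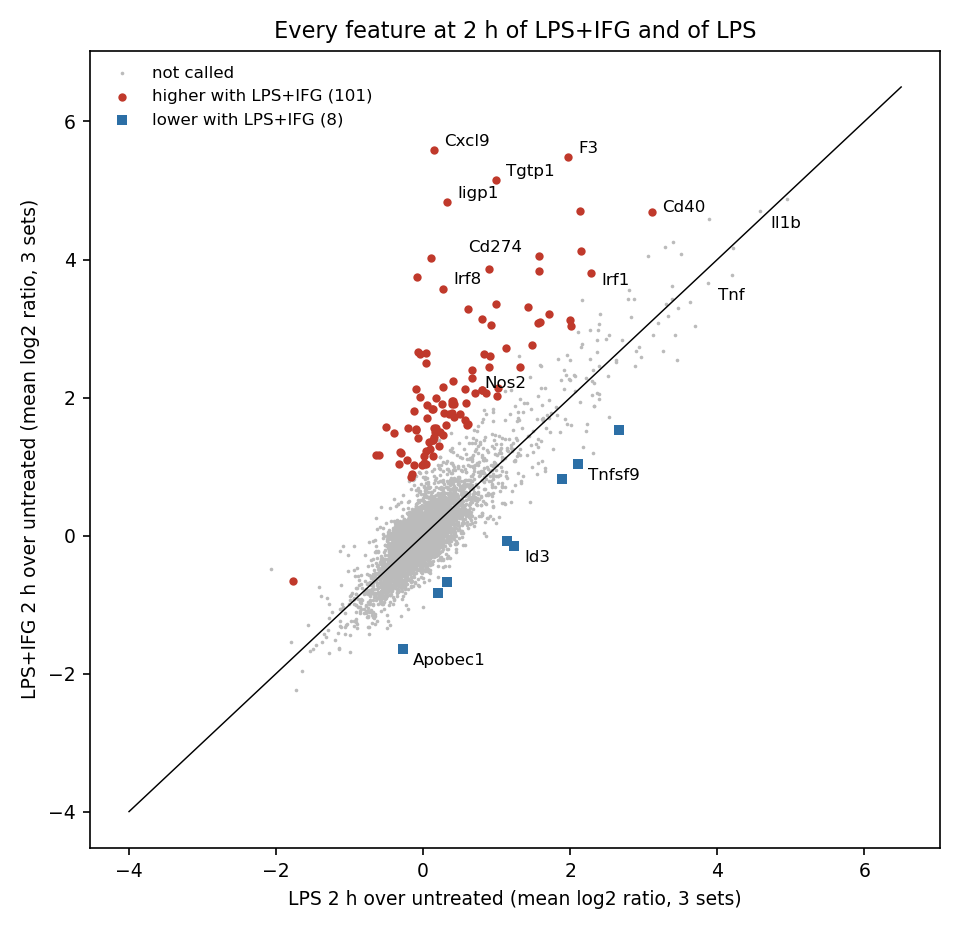
Mean log2 ratio over untreated RNA of each of 11600 features with LPS+IFG (vertical) and with LPS (horizontal), 3 sets each, with the line of equal values. Of the 101 features called higher with LPS+IFG (red circles), 82 lie within 2-fold of the untreated level on the LPS axis and 18 at least 2-fold above it. Of all features 1.84% lie at least 2-fold above it. Genes with high ratios in LPS such as Il1b and Tnf lie by the line.

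The largest difference of a named gene was in a chemokine. Cxcl9, which encodes a ligand of the T cell chemokine receptor CXCR3, had log2 ratios of 5.95, 5.30 and 5.49 with LPS+IFG, against 0.24, 0.06 and 0.14 with LPS. Its difference was 5.43 (SE 0.19, limma's adjusted p = 1.95e-21), a 43.3-fold higher ratio. Ccl12, a monocyte attractant, stood at 3.57, 3.20 and 3.09 with LPS+IFG, against 0.79, 0.55 and 0.50 with LPS, a difference of 2.68 (SE 0.23, limma's adjusted p = 1.07e-10). In both genes every LPS+IFG set lay more than 2 log2 units above every LPS set. No other member of the chemokine lists was called: 1 of 7 measured CXC and 1 of 13 measured CC chemokines rose and 0 fell, with list medians of 0.14 and -0.01. The CC chemokine Ccl5 averaged 0.11 ± 0.04 with LPS+IFG and 0.25 ± 0.20 with LPS. Cxcl10 and Cxcl11, the other CXCR3 ligands, were not analysed here because their probes had too few values.

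Immunity-related GTPases (IRG), which coat and disrupt the vacuoles of intracellular microbes, rose in all 4 measured cases. Iigp1 had ratios of 5.43, 4.51 and 4.57 with LPS+IFG, against 0.49, 0.28 and 0.19 with LPS. Tgtp1 had 5.65, 5.11 and 4.70 with LPS+IFG, against 1.28, 1.66 and 0.02 with LPS, where the third set was far below the other two. 1 array of the second LPS+IFG set carried Tgtp1 at 6.64, the log2 of a 100-fold ratio that no deposited value exceeds, and Tgtp1 has a near-identical neighbouring copy, Tgtp2, from which its signal cannot be separated. Differences were 4.51 (SE 0.31, limma's adjusted p = 5.32e-13) for Iigp1 and 4.17 (SE 0.35, limma's adjusted p = 5.07e-11) for Tgtp1, and 3.68 for Tgtp1 without the third LPS set. Igtp stood at 4.23, 3.50 and 3.76 with LPS+IFG, against 2.07, 1.72 and 0.94 with LPS, a difference of 2.25, SE 0.25. Irgm2, a regulator of the other GTPases, had values in only 2 LPS+IFG sets, 4.20 and 4.04, against 2.47, 2.48 and 1.47 with LPS, a difference of 1.98, SE 0.27. Irgm2 was not called when exact zeros were kept as values. Without the third LPS set the differences were 4.45 for Iigp1, 1.93 for Igtp and 1.64 for Irgm2.

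Guanylate-binding proteins (GBP), larger interferon-induced GTPases that act on the same vacuoles and on cytosolic bacteria, rose in all 3 measured cases. Gbp8 had ratios of 4.71, 3.42 and 3.43 with LPS+IFG, against 1.39, 0.92 and 0.38 with LPS, and Gbp3 had 5.09, 4.46 and 4.56 with LPS+IFG against 2.38, 2.42 and 1.62 with LPS. LPS alone already raised Gbp3, and LPS+IFG lay above it in every set. The values of Gbp4 were smaller, 1.77, 1.09 and 0.58 with LPS+IFG against 0.19, 0.07 and -0.24 with LPS. The differences were 2.96, SE 0.34 for Gbp8, 2.56, SE 0.28 for Gbp3 and 1.14 (SE 0.30, limma's adjusted p = 0.0246) for Gbp4, and 2.70, 2.30 and 1.02 for these genes without the third LPS set, where Gbp4 was no longer called (adjusted p = 0.137). Gbp4 also lost its call without the first or second LPS+IFG set or the second LPS set. The list medians were 3.21 for the IRG and 2.56 for the GBP genes, against 0.01 over all features.

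Promoters are shown for Tgtp1, Igtp, Irgm2 and Gbp3, the GTPase genes called higher for which a window was used here (Iigp1, Gbp4 and Gbp8 are the others called), because all 4 hold a motif match. Gbp3 has 2 windows, for different gene starts, and the match is in 1 of them. A pair of motifs was searched on both strands in the 250 bases before each RefSeq gene start (GRCm38.p6): GAS as TTCNNNGAA, which reads alike on both strands, and ISRE as GAAANNGAAA or its reverse TTTCNNTTTC. Sequences run 5′ to 3′ on the gene's strand, and capitals mark the matches.
Tgtp1, chr11:48992289-48992359, minus strand: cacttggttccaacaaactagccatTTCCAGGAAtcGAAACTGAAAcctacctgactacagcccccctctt
Igtp, chr11:58199486-58199555, plus strand: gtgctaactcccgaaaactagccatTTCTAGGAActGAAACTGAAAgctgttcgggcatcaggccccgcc
Irgm2, chr11:58214877-58214947, plus strand: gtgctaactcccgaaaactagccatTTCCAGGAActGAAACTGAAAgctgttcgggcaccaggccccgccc
Gbp3, chr3:142559974-142560039, plus strand: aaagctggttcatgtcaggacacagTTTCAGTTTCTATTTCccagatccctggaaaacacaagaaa
In each of the first 3 the ISRE match begins 11 bases after the GAS match begins, and the GAS match lies 88 bases before the gene start in Tgtp1, 45 in Igtp and 75 in Irgm2. Igtp, Irgm2 and Tgtp1 belong to 1 gene family. Gbp3 instead holds 2 overlapping ISRE matches, 45 and 39 bases before its start.

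Among transcription factors of the interferon pathway, 3 of 8 measured interferon regulatory factors rose and 0 fell (list median 0.26). Irf8, a factor of myeloid cells that pairs with IRF1 and PU.1, had 3.49, 3.79 and 3.46 with LPS+IFG, against 0.32, 0.33 and 0.15 with LPS. LPS alone thus left Irf8 near the untreated level, and its difference was 3.31 (SE 0.22, limma's adjusted p = 1.06e-13). Irf1, an early interferon gamma target that turns on many of the other genes, had 3.84, 3.59 and 4.01 with LPS+IFG, against 2.70, 1.97 and 2.18 with LPS. It was raised in both groups and its difference was 1.52 (SE 0.26, limma's adjusted p = 0.000134); it was 0.93 and not called after each array's spread was made equal (scaled spread, adjusted p = 0.676). Irf4 had 2.76, 3.05 and 2.48 with LPS+IFG against 1.26, 1.56 and 1.64 with LPS, a difference of 1.28 (SE 0.36, limma's adjusted p = 0.0442) that was no longer called when any of the 6 sets was left out (adjusted p 0.0601 to 0.179). The other 5 members, Irf2, Irf3, Irf5, Irf7 and Irf9, differed by -0.11 to 0.31.

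Of 5 measured STAT genes, the signal carriers of cytokine receptors, 1 rose. Stat3, the STAT factor of interleukin 6 and interleukin 10, had 2.39, 2.22 and 1.85 with LPS+IFG, against 0.48, 0.23 and 0.11 with LPS, a difference of 1.88 (SE 0.15, limma's adjusted p = 2.73e-11). Stat2 differed by 1.00 (adjusted p = 0.0019), just under the 2-fold limit. Genes of the interferon gamma receptor and the Janus kinases were called in 0 of 9 measured cases by limma, and 4 of 9 had an unadjusted p under 0.05, against 10.5% of all features. Ifngr1 averaged -0.65 ± 0.43 with LPS+IFG and -0.47 ± 0.24 with LPS, Ifngr2 -0.15 ± 0.19 with LPS+IFG and 0.25 ± 0.33 with LPS, and Jak2 2.95 ± 0.54 with LPS+IFG and 2.10 ± 0.51 with LPS. Jak2 was raised in both groups and its sets overlapped.

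Feedback inhibitors of this signalling rose in 2 of 6 measured cases. Socs1, which blocks Janus kinases at the interferon gamma receptor, had 3.62, 3.50 and 2.97 with LPS+IFG, against 0.90, 1.29 and 0.79 with LPS, a difference of 2.37 (SE 0.20, limma's adjusted p = 8.05e-11). Cish, a relative induced through STAT5, had 3.28, 3.12 and 3.22 with LPS+IFG, against 1.64, 1.99 and 1.50 with LPS, a difference of 1.50, SE 0.18. In both genes all LPS+IFG sets lay above all LPS sets, as in 100 of the 101 features called higher. Socs3, the feedback inhibitor of interleukin 6 signalling, averaged 0.17 ± 0.24 with LPS+IFG and 0.06 ± 0.24 with LPS. Promoters of Irf8, Irf1 and Socs1 are shown because they hold GAS matches alone or ISRE matches alone. Irf8 and Irf1 have 2 windows each, with GAS in 1. The windows of Irf4, Stat3 and Cish, also called, held neither motif.
Irf8, chr8:120736162-120736238, plus strand: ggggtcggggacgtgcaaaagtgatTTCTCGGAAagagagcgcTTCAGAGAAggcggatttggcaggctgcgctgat
Irf1, chr11:53769899-53769957, plus strand: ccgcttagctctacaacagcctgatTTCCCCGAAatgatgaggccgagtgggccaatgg
Socs1, chr16:10785579-10785644, minus strand: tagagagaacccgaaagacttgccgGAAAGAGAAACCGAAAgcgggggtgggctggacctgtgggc
Irf8 holds 2 GAS matches, 171 and 153 bases before its start, Irf1 1 GAS match 90 bases before, and Socs1 2 overlapping ISRE matches, 83 and 77 bases before. Over all genes called higher, 70 of 91 had a window in the RefSeq table. A gene was counted if any of its windows held the motif. GAS was found in 12 of the 70 (17.1%) and in 7.51% of 7761 measured genes, and ISRE in 12 (17.1%) and in 3.41%. By windows, GAS was in 12.5% of 96 and in 6.21% of 9815, and ISRE in 12.5% and in 2.78%. Both motifs were in 4 of the 70 (5.71%: Tgtp1, Igtp, Irgm2 and Sgk1) and in 0.451% of measured genes. Of the 7 named genes called lower 6 had a window, and 0 of 6 held either motif in it. A match describes these letters and is not a bound site.

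**Figure D2:**
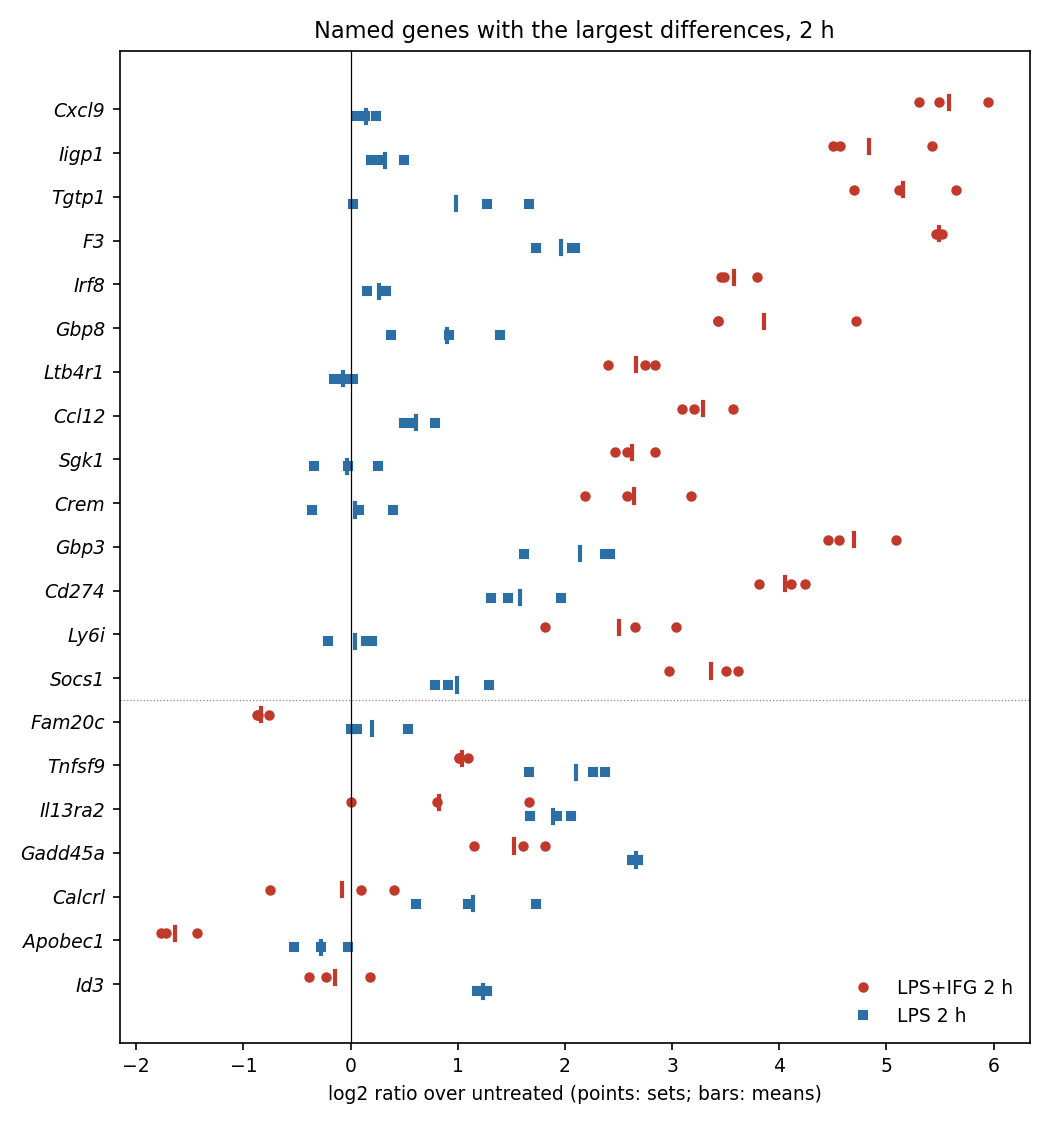
Log2 ratios over untreated RNA in each set of LPS+IFG (red circles, upper row of each gene) and LPS (blue squares, lower row), with group means as bars, for the 14 named genes with the highest and the 7 with the lowest called differences. Only called genes whose groups do not overlap could be chosen, so the lack of overlap in these 21 follows from the choice. Ltb4r1, Sgk1, Crem and Ly6i lie near 0 with LPS.

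Most early cytokine genes of the LPS response did not pass the test between the groups. Inflammatory cytokines rose in 3 of 17 measured cases and fell in 0, with a list median of 0.03. Il1b stood at 5.00, 4.43 and 4.66 with LPS+IFG, against 4.81, 4.50 and 4.43 with LPS (difference 0.12, SE 0.32), and Tnf at 3.84, 2.90 and 4.23 with LPS+IFG against 3.86, 3.72 and 4.04 with LPS (difference -0.22, SE 0.44). These are among the highest ratios in either group, and the sets overlap. Il10, an anti-inflammatory cytokine, averaged 2.04 ± 0.60 with LPS+IFG and 2.29 ± 0.58 with LPS, and Ifnb1, interferon beta, 2.90 ± 0.73 with LPS+IFG and 3.42 ± 0.20 with LPS. Il12b, a subunit of interleukin 12, was near the untreated level in both (0.07 with LPS+IFG and 0.04 with LPS).

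The 3 cytokine genes that rose were Il15, Il18 and Il6. Il15, which sustains natural killer and memory T cells, had 3.62, 3.37 and 2.93 with LPS+IFG, against 1.88, 1.70 and 0.69 with LPS, a difference of 1.89 (SE 0.24, limma's adjusted p = 1.12e-06) and of 1.52 without the third LPS set. Il18, which drives interferon gamma production, had 1.41, 2.13 and 0.96 with LPS+IFG, against 0.32, 0.71 and -0.56 with LPS. Its difference of 1.34 (SE 0.31, limma's adjusted p = 0.0101) was no longer called without the third LPS set (0.99, adjusted p = 0.154) or the second LPS+IFG set. Il6 was the 1 called gene whose sets overlapped, with 3.76, 3.25 and 2.09 with LPS+IFG against 1.52, 2.27 and 2.23 with LPS. Its difference of 1.03 (SE 0.27, limma's adjusted p = 0.0258) was 0.66 without the first LPS+IFG set (adjusted p = 0.341) and was not called without the second LPS+IFG or the first LPS set either.

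NF-kB pathway genes and feedback regulators rose in 1 of 18 measured cases, with a list median of 0.01. That gene was Bcl3, an IkB-like protein of the nucleus, with 3.12, 3.30 and 2.96 with LPS+IFG against 1.68, 2.37 and 1.94 with LPS, a difference of 1.13 (SE 0.28, limma's adjusted p = 0.0195). Its call was lost when the first or the third LPS set, or the first or second LPS+IFG set, was left out. It was 0.62 with scaled spread (adjusted p = 0.64) and 0.93 from the arrays with treated RNA in Cy3 alone (adjusted p = 0.235), and was called in neither. Nfkbiz, another nuclear IkB protein, had the highest LPS ratio of the list and averaged 4.88 ± 0.15 with LPS+IFG and 4.95 ± 0.14 with LPS. Of 26 immediate early genes 1 rose: Klf6, a zinc finger factor, had 2.06, 1.79 and 1.87 with LPS+IFG against 0.22, 0.43 and 0.11 with LPS, a difference of 1.65 (SE 0.21, limma's adjusted p = 1.06e-06). Myc averaged 3.77 ± 0.66 with LPS+IFG and 4.19 ± 0.44 with LPS. Toll-like receptors and adaptors were called in 0 of 11 cases by limma (4 at an unadjusted p under 0.05, against 10.5% of all features). The receptor of bacterial lipoproteins Tlr2 had 1.90, 1.84 and 1.12 with LPS+IFG, against 2.55, 2.20 and 1.92 with LPS, without overlap, but its difference of -0.61 (SE 0.22, limma's adjusted p = 0.178) did not pass.

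**Figure D3:**
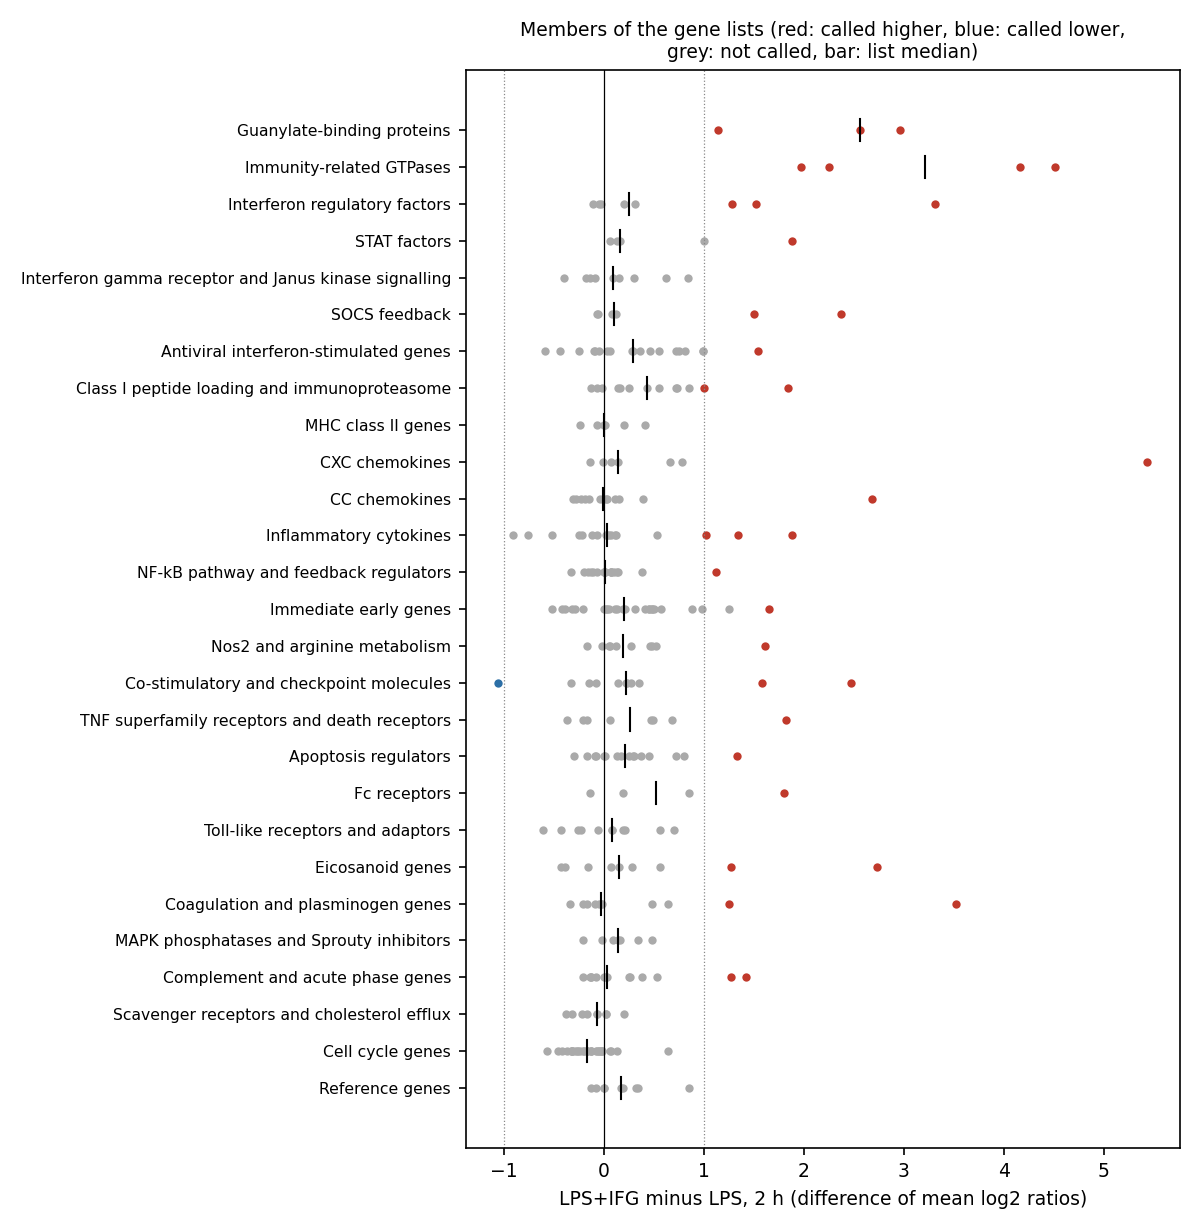
Difference in mean log2 ratio, LPS+IFG minus LPS at 2 h, of every measured member of 27 gene lists (red called higher, blue called lower, grey not called, black bar list median, dotted lines at a 2-fold difference). All measured IRG and GBP genes lie right of the upper 2-fold line, while the medians of the other lists lie between -0.17 and 0.52.

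Effector genes of the macrophage rose in several lists, usually in 1 or 2 members each. Nos2, the inducible nitric oxide synthase, had 2.76, 2.25 and 1.83 with LPS+IFG, against 0.88, 0.96 and 0.16 with LPS, lowest in the third set. Nos2 differed by 1.62 (SE 0.21, limma's adjusted p = 8.9e-07). It was the 1 gene called of 10 measured in arginine metabolism; Gch1, which makes the cofactor of the enzyme, averaged 1.20 ± 0.27 with LPS+IFG and 0.74 ± 0.24 with LPS, and Arg1, which competes for arginine, 0.19 ± 0.27 with LPS+IFG and 0.22 ± 0.24 with LPS. F3, tissue factor, the starter of coagulation, had 5.46, 5.48 and 5.52 with LPS+IFG against 2.07, 2.10 and 1.73 with LPS, a difference of 3.52 (SE 0.35, limma's adjusted p = 2.84e-09). Procr, the receptor of anticoagulant protein C, had 2.07, 2.22 and 0.98 with LPS+IFG against 0.29, 0.62 and 0.60 with LPS, a difference of 1.25, SE 0.24. Procr was not called when only the compared conditions were fitted. The other 9 of 11 measured genes of coagulation and plasminogen activation were not called.

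Of 9 measured eicosanoid genes 2 rose, Ltb4r1 and Ptger4. Ltb4r1, the leukotriene B4 receptor, had 2.84, 2.40 and 2.75 with LPS+IFG, against 0.02, -0.15 and -0.07 with LPS, a difference of 2.73 (SE 0.22, limma's adjusted p = 1.54e-11). Ptger4, a prostaglandin E2 receptor, had 1.70, 1.03 and 1.33 with LPS+IFG, against 0.88, -0.20 and -0.44 with LPS, a difference of 1.27 (SE 0.33, limma's adjusted p = 0.0233) that was 1.01 without the third LPS set (adjusted p = 0.198) and lost its call without the second LPS set or the first or the third LPS+IFG set too. Ptgs2, the inducible cyclooxygenase, averaged 3.43 ± 0.81 with LPS+IFG and 2.86 ± 0.55 with LPS, with overlapping sets.

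Surface molecules that meet T cells moved in both directions: of 11 measured co-stimulatory and checkpoint genes 2 rose and 1 fell. Cd274, which encodes the checkpoint ligand PD-L1, had 4.24, 4.11 and 3.81 with LPS+IFG, against 1.47, 1.96 and 1.31 with LPS, a difference of 2.47 (SE 0.22, limma's adjusted p = 3.4e-10). Without the third LPS set it was 2.34. Cd40, the receptor of T cell CD40 ligand, had 5.41, 4.14 and 4.51 with LPS+IFG, against 3.73, 3.02 and 2.56 with LPS. Its difference of 1.58 (SE 0.34, limma's adjusted p = 0.00359) was not called without the third LPS set (1.31, adjusted p = 0.057), without the first LPS+IFG set, or with scaled spread. Cd40 also lost its call when only the compared conditions were fitted (limma's adjusted p = 0.0799). Tnfsf9, the ligand of 4-1BB, went the other way, with 1.02, 1.01 and 1.10 with LPS+IFG against 2.26, 2.38 and 1.66 with LPS. Its difference of -1.06 (SE 0.29, limma's adjusted p = 0.0351) lost its call when any set but the third of LPS was left out. Cd86 averaged 0.42 ± 0.51 with LPS+IFG and 0.20 ± 0.24 with LPS.

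Tnfrsf1a, the main receptor of tumour necrosis factor, rose as 1 of 8 receptors of its family, with 2.08, 1.93 and 1.98 with LPS+IFG against 0.19, 0.31 and 0.03 with LPS and a difference of 1.82 (SE 0.16, limma's adjusted p = 2.59e-10). Fas, a death receptor, was raised in both groups, at 3.07 ± 0.50 with LPS+IFG and 2.39 ± 0.53 with LPS. Pmaip1 (Noxa), a pro-apoptotic BH3 protein, was the 1 of 16 measured apoptosis regulators called, at 1.29, 0.98 and 1.03 with LPS+IFG, against -0.06, -0.29 and -0.33 with LPS, a difference of 1.33 (SE 0.26, limma's adjusted p = 0.00111). Fcgr3, a receptor for immune complexes, had 1.03, 1.50 and 0.96 with LPS+IFG against -0.77, -0.21 and -0.93 with LPS. Its LPS sets all lay below 0 and its LPS+IFG sets above it, with a difference of 1.80 (SE 0.22, limma's adjusted p = 2.6e-07). Fcgr1, the high-affinity receptor, passed the adjusted p alone (0.85, adjusted p = 0.000231), at 0.40 ± 0.10 with LPS+IFG and -0.45 ± 0.12 with LPS, beside 1.51 ± 0.13 with IFG. Of 14 complement and acute phase genes 2 rose: Cfb (factor B of the alternative pathway) differed by 1.42, SE 0.25 and C1ra, a protease of the classical pathway, by 1.27, SE 0.22. Without the third LPS set Cfb differed by 1.23 and C1ra by 1.02, and both were called. C1ra was not called when only the compared conditions were fitted (limma's adjusted p = 0.0676).

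Of 13 measured antigen presentation genes of class I 2 rose, both subunits of the peptide transporter: Tap1 had 2.62, 2.08 and 2.02 with LPS+IFG against 1.00, 0.44 and -0.24 with LPS, and Tap2 had 1.38, 0.63 and 1.12 with LPS+IFG against 0.40, -0.14 and -0.16 with LPS. Their differences were 1.84 (SE 0.23, limma's adjusted p = 6.06e-07) and 1.01 (SE 0.21, limma's adjusted p = 0.0026), and 1.52 and 0.91 without the third LPS set, where Tap2 was under the 2-fold limit. Tap2 was so as well without the second LPS set or the first or the third LPS+IFG set. By adjusted p alone 5 of 13 were higher; the others were B2m (difference 0.85), the immunoproteasome subunit Psmb10 (0.73) and H2-T23 (0.72), and the list median was 0.43. Class II genes were called in 0 of 7 cases by limma (2 at an unadjusted p under 0.05, against 10.5% of all features), with differences of -0.24 to 0.41. Ciita, their master regulator, averaged -0.01 ± 0.20 with LPS+IFG and 0.05 ± 0.07 with LPS.

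Antiviral interferon-stimulated genes, the list on which the third LPS set was low, rose in 1 of 19 measured cases (3 by adjusted p alone), with a median difference of 0.29. Zbp1, a sensor of Z-form nucleic acid, had 2.87, 2.91 and 1.55 with LPS+IFG, against 1.16, 1.52 and 0.03 with LPS; its difference of 1.54 (SE 0.43, limma's adjusted p = 0.0415) was 1.11 without the third LPS set (adjusted p = 0.351) and was not called without the first LPS set or the first or second LPS+IFG set. Ifit2 had 3.72, 3.46 and 2.46 with LPS+IFG, against 3.54, 3.39 and 0.29 with LPS and its difference of 0.81 (SE 0.48, limma's adjusted p = 0.616) was not called; without the third LPS set it was -0.25. Mx1 averaged 2.28 ± 0.72 with LPS+IFG and 2.22 ± 0.60 with LPS.

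The 7 named genes that fell had differences of -1.03 to -1.39. Id3, an inhibitor of helix-loop-helix factors, had 0.18, -0.39 and -0.23 with LPS+IFG, against 1.27, 1.18 and 1.27 with LPS, a difference of -1.39 (SE 0.23, limma's adjusted p = 0.000151). Its relative Id2 rose, with 1.97, 1.79 and 0.95 with LPS+IFG against -0.47, -0.45 and -0.61 with LPS and a difference of 2.08 (SE 0.33, limma's adjusted p = 6.45e-05). Apobec1, a cytidine deaminase, had -1.44, -1.77 and -1.72 with LPS+IFG, against -0.03, -0.28 and -0.53 with LPS, a difference of -1.36 (SE 0.21, limma's adjusted p = 3.98e-05). Id3 and Apobec1 kept their calls whichever set was left out. Calcrl, a receptor component for adrenomedullin and the calcitonin gene-related peptide, had 0.10, -0.75 and 0.40 with LPS+IFG against 1.10, 1.73 and 0.61 with LPS (difference -1.23, SE 0.26). Gadd45a, a growth arrest and stress gene, had 1.61, 1.81 and 1.15 with LPS+IFG against 2.68, 2.62 and 2.67 with LPS (difference -1.13, SE 0.28). In both the LPS+IFG sets lay below the LPS sets without overlap, which the rule that named them required. Il13ra2, the decoy receptor of interleukin 13, had 0.81, 0.00 and 1.67 with LPS+IFG against 1.93, 2.06 and 1.68 with LPS (difference -1.06, SE 0.26), with almost equal values in set 3. Fam20c, a kinase of secreted proteins, had -0.76, -0.86 and -0.87 with LPS+IFG against 0.54, 0.06 and 0.01 with LPS (difference -1.03, SE 0.26). These 4 and Tnfsf9 each lost the call when single sets were left out: Calcrl without the second set of either group, Gadd45a without the first or the third LPS set or the third LPS+IFG set, Il13ra2 without the first or second set of either group, and Fam20c without any LPS+IFG set or the first LPS set. Leaving out single sets gave 4 to 11 features lower in all, 4 of them without the second LPS set and 5 without the first set of either group.

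Other genes that rose are given here in groups made after their values were seen. Sgk1, a kinase also induced by glucocorticoids, had 2.58, 2.47 and 2.84 with LPS+IFG against 0.26, -0.02 and -0.34 with LPS and a difference of 2.66 (SE 0.36, limma's adjusted p = 2.6e-06). Crem, a modulator of cyclic AMP responses, had 3.18, 2.19 and 2.58 with LPS+IFG against -0.36, 0.08 and 0.40 with LPS and a difference of 2.61 (SE 0.21, limma's adjusted p = 1.54e-11). Ly6i, a surface protein of monocytes, had 3.03, 2.65 and 1.82 with LPS+IFG against -0.21, 0.14 and 0.20 with LPS and a difference of 2.46 (SE 0.24, limma's adjusted p = 2.14e-09). All 3 were near the untreated level with LPS. Further transcriptional regulators were Batf2 (2.34, SE 0.23), Bach1 (1.87, SE 0.37), Mxd1 (1.56, SE 0.23), Lmo4 (1.50, SE 0.27) and Tbx21, the T helper 1 factor T-bet (1.41, SE 0.25). Genes linked to sensing or restricting nucleic acids were Ifi211 (1.81, SE 0.18), Samhd1 (1.71, SE 0.14), Ifi203 (1.54, SE 0.27), Ifi204 (1.50, SE 0.26), Sting1 (1.48, SE 0.17) and Pml (1.30, SE 0.18). Cytokine receptor chains included Il13ra1 (1.51, SE 0.20), Il4ra (1.28, SE 0.32), Il15ra (1.25, SE 0.25) and Il18rap (1.02, SE 0.21), beside the interleukin 18 antagonist Il18bp (1.29, SE 0.18). Nucleoside and nicotinamide metabolism was represented by Pnp (1.50, SE 0.13), Slc28a2 (1.31, SE 0.21), Upp1 (1.19, SE 0.16) and Nampt (1.08, SE 0.17). The 4 probes of Homer1, a synaptic and calcium-signalling scaffold, disagreed, with differences of 0.06 to 3.13. Of the 10 higher probes without a gene name the highest were 18288 (3.93) and 14631 (3.83).

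Scavenger receptor and cholesterol efflux genes, cell cycle genes and MAPK phosphatases were called in 0 of 9, 0 of 31 and 0 of 7 measured cases by limma, with list medians of -0.07, -0.17 and 0.14. At an unadjusted p under 0.05 these counts were 0, 7 and 1, against 10.5% of all features. Among the cell cycle genes 1 was lower by adjusted p alone, Rrm2, a ribonucleotide reductase subunit (-0.57, SE 0.15). Reference genes were called in 0 of 9 cases (2 at an unadjusted p under 0.05), with differences of -0.13 to 0.85, the highest in B2m, which is also a class I gene. Markers of T cells (7 measured), B cells (6), fibroblasts (8) and epithelium (6) were called in 0 cases, also at an unadjusted p under 0.05, with medians of -0.02 to 0.08.

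LPS+IFG was then set against interferon gamma alone. LPS+IFG exceeded IFG in 196 features (1.69%) and was lower in 53 (0.457%). The highest were genes of the LPS response: Myc, a growth regulator, differed by 4.83, SE 0.33, Il1b by 4.71, SE 0.32, Nfkbiz by 4.40, SE 0.36 and the phosphatase Dusp1 by 3.91, SE 0.34. F3, at 1.82 with IFG and 1.97 with LPS, differed from IFG by 3.67, SE 0.35. The lowest were the sialyltransferase St8sia4 (-2.06, SE 0.23), Pax6 (-1.86, SE 0.29), the thioredoxin inhibitor Txnip (-1.81, SE 0.30), Slc37a2 (-1.62, SE 0.16) and Frmd4b (-1.48, SE 0.20). All 5 had mean ratios below 0 with LPS+IFG and with LPS.

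Set beside the sum of the ratios of both single agents, LPS+IFG was above in 15 features (0.129%) and below in 20 (0.172%). Lipid binding protein is listed for LPS alone, so its absence from LPS+IFG cannot be told apart here either. If treatments shared untreated RNA, the error of that RNA does not cancel in this comparison. With the set number as a block 24 were above and 42 below, and with scaled spread 5 above and 44 below. Sgk1 was above the sum by 2.96 (SE 0.44, limma's adjusted p = 0.000147): it averaged 2.63 ± 0.19 with LPS+IFG, -0.29 ± 0.15 with IFG and -0.04 ± 0.30 with LPS. Id2 (2.08, SE 0.41), Gar1, which encodes a protein of small nucleolar ribonucleoproteins (1.50, SE 0.17), Crabp2, a retinoic acid carrier (1.80, SE 0.42), and Ccl12 (1.53, SE 0.28) were next among named genes. Sgk1, Id2 and Gar1 were called above the sum under every alternative that gave them a value, and Ccl12 and Crabp2 were not with scaled spread. Crabp2 also lost its call without the first or second set of either group. Nos2 averaged 2.28 ± 0.46 with LPS+IFG, 0.27 ± 0.07 with IFG and 0.67 ± 0.44 with LPS, and lay above the sum by 1.35, SE 0.25.

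Below the sum stood Irgm2 (-2.21, SE 0.34), the ubiquitin ligase and antibody receptor Trim21 (-2.15, SE 0.31), Irf1 (-2.15, SE 0.31), Lynx1, a relative of snake toxins that modulates acetylcholine receptors (-2.12, SE 0.31), and Ifit1, which binds viral RNA (-1.99, SE 0.30). With exact zeros kept, Irgm2 was at -2.23, Lynx1 at -1.12 and Ifit1 at -0.75, and none of these 3 was called (adjusted p = 0.301, 0.156 and 0.215). Lynx1 was also not called with the missing-value filter on the compared conditions (-0.42) or with treated RNA in Cy5 alone (-1.23). Each of the 5 had a mean ratio over 1.7 with IFG alone and with LPS alone. Irf1 averaged 3.81 ± 0.21 with LPS+IFG, 3.67 ± 0.06 with IFG and 2.29 ± 0.38 with LPS, so that the combination was close to IFG alone. The sums of the single ratios were 6.33 for Irgm2 and 6.30 for Lynx1, close to the limit of 6.64 that holds for a deposited ratio, and 5.96, 5.37 and 3.92 for Irf1, Ifit1 and Trim21. Of the 101 features higher than with LPS, 14 were above the sum and 3 below it. The 101 were chosen by the difference LPS+IFG minus LPS, which is part of this quantity, so the choice itself favours values above the sum.

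**Figure D4:**
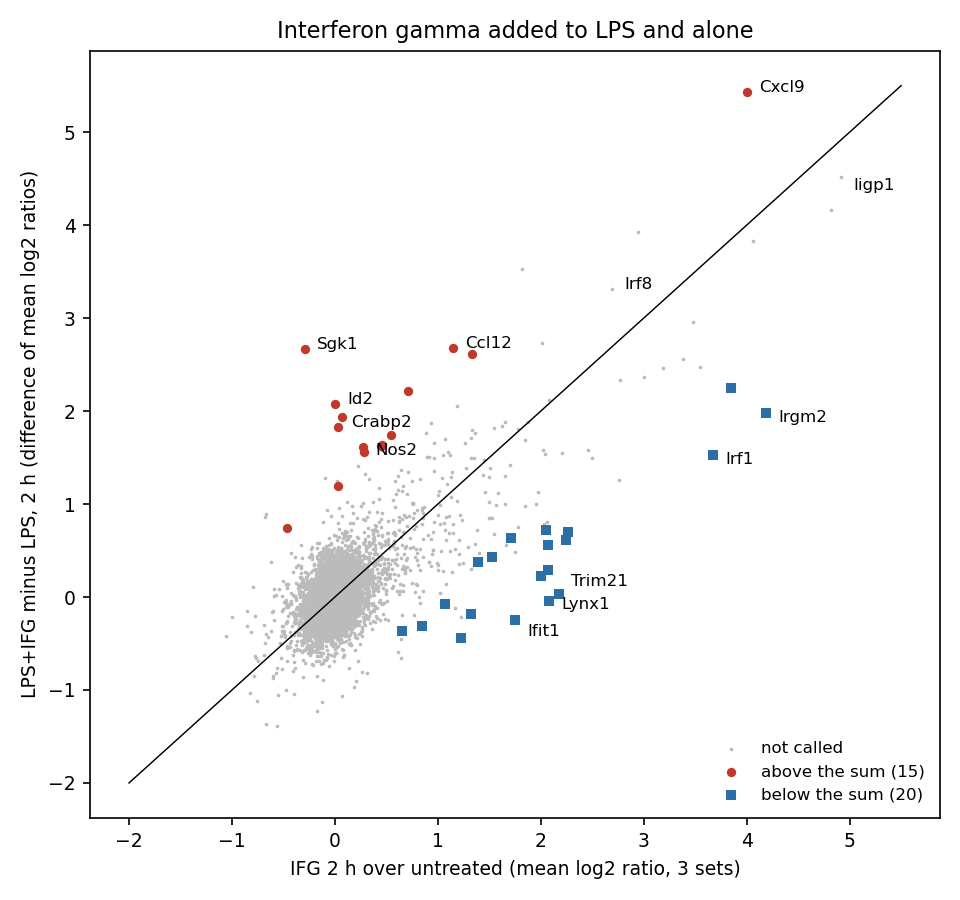
Difference LPS+IFG minus LPS at 2 h (vertical) against the mean log2 ratio of IFG alone over untreated RNA (horizontal), for 11600 features, 3 sets per group, with the line on which both are equal. The 15 features above the sum (red circles) lie mostly above the line at low values of IFG, and the 20 below it (blue squares) lie mostly right of a 2-fold rise with IFG.

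The difference between LPS+IFG and LPS was also followed over time. At 1 h 73 features were higher (0.629%) and at 4 h 94 (0.81%); 47 and 45 of the 101 features of 2 h were among them. The difference itself changed between 1 h and 2 h in 9 features, higher at 2 h in 2 (0.0172%) and lower in 7 (0.0603%); with the set number as a block these were 12 and 13. Irf1 differed by 3.27, SE 0.26 at 1 h, 1.52 at 2 h and 0.74 at 4 h, a change of -1.75 (SE 0.36, limma's adjusted p = 0.0381) from 1 h to 2 h. Irgm2 likewise differed by 3.87, 1.98 and 0.20. Parp14, a mono-ADP-ribosyltransferase, and Mx2, an antiviral GTPase, differed by 1.96 and 1.20 at 1 h and by 0.29 and -0.44 at 2 h, and the unannotated gene 5430427O19Rik by 1.38 and -0.31. With scaled spread the changes of Irf1 (-2.27), Irgm2 (-2.34), Parp14 (-2.17) and Mx2 (-2.01) were larger in size but not called, and with only the compared conditions fitted 5430427O19Rik, Irf1, Irgm2 and Mx2 were not called. Irf1 was not called without the first or the third LPS set or the first or second LPS+IFG set, Irgm2 without the first or second LPS set or the first or the third LPS+IFG set, and Mx2 without the second LPS set or the third LPS+IFG set. Both features higher at 2 h were probes without a gene name, 5796 and 11097.

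Between 2 h and 4 h the difference changed in 41 features, higher at 4 h in 16 (0.138%) and lower in 25 (0.216%); a block on the set number gave 27 and 51, and scaled spread 6 and 3. Of the 101 features, 17 had a lower difference at 4 h. The 101 were chosen by their 2 h difference, which this change subtracts, so the choice itself favours falls. Sgk1 differed by 2.61, SE 0.36 at 1 h, 2.66 at 2 h and -0.19 at 4 h, a change of -2.85 (SE 0.51, limma's adjusted p = 0.00221) from 2 h to 4 h. The GTPases Tgtp1 (-2.42, SE 0.49), Iigp1 (-2.19, SE 0.44) and Gbp3 (-1.95, SE 0.39) and Cd274 (-1.80, SE 0.33) had smaller differences at 4 h too. With scaled spread Sgk1 was called (-2.43), and Tgtp1 (-2.35), Iigp1 (-2.23), Gbp3 (-1.63) and Cd274 (-1.42) were not. Tgtp1 was also not called without the third LPS set of 2 h, when 15 features in all were lower. Cxcl9 stayed at 5.14, 5.43 and 5.28 at 1, 2 and 4 h.

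The genes with the largest gains from 2 h to 4 h differed little at 2 h. Gpr33, an orphan receptor of the chemoattractant family, differed by 0.09 at 2 h and 1.97 at 4 h, the homeobox factor Lhx2 by 0.35 and 2.14, the activin antagonist Fst by 0.87 and 2.65, Entpd1 (CD39, which degrades extracellular ATP) by 0.13 and 1.89, and the sphingosine phosphate phosphatase Sgpp1 by -0.04 and 1.62. All 5 gains were called with scaled spread. Entpd1 and Fst were the ones of the 5 still called when only the 4 compared conditions were fitted, where Sgk1, Tgtp1, Iigp1, Gbp3 and Cd274 were not called either. Among genes already higher at 2 h, Ly6i (1.60, SE 0.34) and Upp1 (1.41, SE 0.23) gained further.

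**Figure D5:**
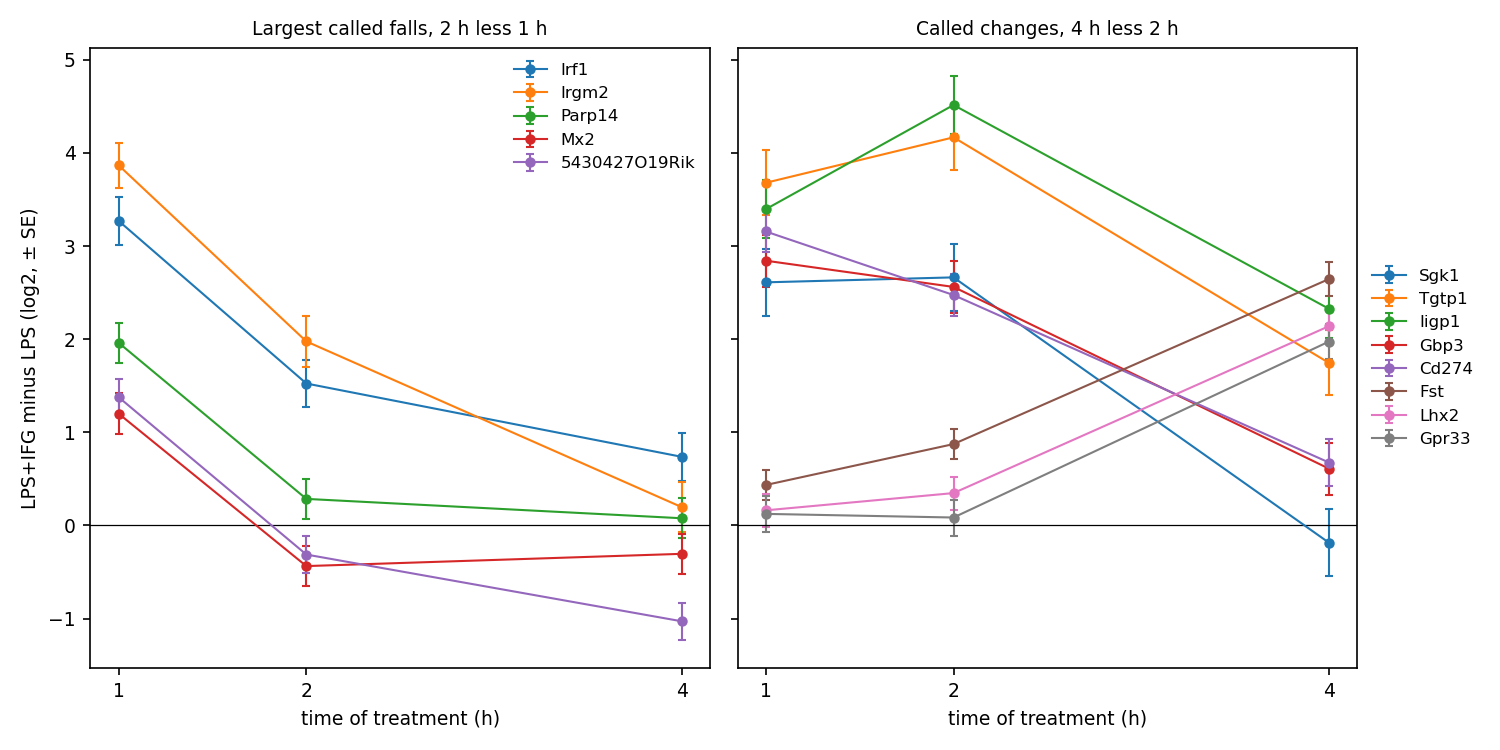
Difference in mean log2 ratio, LPS+IFG minus LPS, at 1, 2 and 4 h (± SE of the fit, 3 sets per group) for some of the named genes with called changes. Entpd1 and Sgpp1, whose differences were also higher at 4 h than at 2 h, are not drawn. Left, the differences of Irf1, Irgm2, Parp14, Mx2 and 5430427O19Rik are lower at 2 h than at 1 h; right, those of Sgk1, Tgtp1, Iigp1, Gbp3 and Cd274 are lower and those of Fst, Lhx2 and Gpr33 higher at 4 h than at 2 h.

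LPS+2MA served as a second group with LPS and without listed lipid binding protein. Against it, LPS+IFG was higher in 95 features (0.819%) and lower in 27 (0.233%); with scaled spread these were 61 and 24. The comparison shares its LPS+IFG sets with the one against LPS, so each gene's values are given side by side. Cxcl9 differed by 5.44 from LPS+2MA and 5.43 from LPS, Iigp1 by 4.58 and 4.51, Tgtp1 by 4.10 and 4.17, Irf8 by 3.25 and 3.31, and Gbp8 by 3.18 and 2.96. Il6 differed by 0.52 from LPS+2MA and 1.03 from LPS, Pmaip1 by 0.63 and 1.33, and the granule proteoglycan Srgn by 0.07 and 1.01. Against LPS+2MA those 3 were not called. Of the 101 features higher than with LPS, 81 were called higher than with LPS+2MA too, and all 101 lay above it in mean. The share of all features above it in mean was not counted. Of the 8 features lower than with LPS, 4 were called lower than with LPS+2MA. The 101 and the 8 were chosen by values of the same LPS+IFG sets, so the choice itself favours these counts. Lower than with LPS+2MA were Ifnb1 (-1.96, SE 0.41), the calcineurin inhibitor Rcan1 (-1.91, SE 0.47), the nuclear receptor Nr4a1 (-1.82, SE 0.38), the acid phosphatase Acp5 (-1.64, SE 0.17) and Tcim (-1.57, SE 0.35); from LPS these differed by -0.52, 0.00, -0.39, -0.28 and -0.39. LPS+2MA was itself higher than LPS in 3 features (0.0259%) and lower in 0 by limma, with 518 (4.47%) at an unadjusted p under 0.05 in either direction.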

How the data were processed

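The deposited values are log2 ratios of 2-colour Agilent arrays as the authors processed them, treated RNA against untreated RNA, from 90 arrays. The values were taken as log2 ratios of Cy5 over Cy3; the labels state neither direction nor normalization, and the array medians of the 12 arrays lay between -0.04 and 0.01. An exact 0 was treated as missing. Ratios with treated RNA in Cy3 were turned in sign, the 2 dye-swapped arrays of each set were averaged (both needed), and the 45 set means of 15 conditions entered 1 limma fit (lmFit and eBayes, limma 3.58.1, R 4.3.3), with adjustment by Benjamini-Hochberg over 11600 features. Probes needed a value in at least 2 of 3 sets of every condition, and probes of 1 gene were averaged (1920 genes with several). Gene names came from the platform annotation, in which 13738 probes name 1 gene, with 99.7% of their gene IDs found in RefSeq's table. The number of arrays limits the precision. Tables and plots were made with Python 3.11.15, pandas 2.3.3, numpy 2.4.6 and matplotlib 3.10.9, and the fit was tested on simulated data.

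Genes named are the 14 highest and up to 8 lowest called genes whose groups do not overlap, the called members of 32 gene lists (at most 6 a list), the 5 highest and 5 lowest called genes of each other comparison, and a list of single names; other names were chosen after their values were seen. The members and lists were chosen with earlier results of these data known. Same-numbered sets deviated together from their group means (correlations 0.42, 0.49 and 0.17 over 11231 features), so the numbers may pair the sets. However, the third LPS+IFG set correlated more with the first LPS set (0.27) than with the third. The reported fit has no term for the set number, so its SE, p-values and calls ignore such a pairing. A block on the number was an alternative, and it gave more calls for the changes between times and against the sum. Further alternatives were 1 dye orientation alone, all arrays with a dye term, scaled spread, zeros kept, other filters, single probes, only the compared conditions, and each set left out in turn; a set mean from 1 array was added after seeing the data. Some items are not reported here.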

Additional observations from a re-analysis of the deposited data

Results flagged for a closer look

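The results here are named genes in which the difference LPS+IFG minus LPS changed between times or differed from the ratio of IFG alone. Each was called by limma's test of that change or difference itself. Settings in the counts include the one reported and leave out single-probe fits.

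The difference LPS+IFG minus LPS changed from 1 h to 2 h by -1.89 (SE 0.36, limma's adjusted p = 0.018) in Irgm2 (called in 8 of 16 settings). The change was -1.75 in Irf1 (8 of 17 settings), -1.69 in 5430427O19Rik (16 of 17 settings), -1.68 in Parp14 (14 of 17 settings) and -1.64 in Mx2 (10 of 16 settings). Irgm2, Irf1, Parp14 and Mx2 are known interferon-induced genes.

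From 2 h to 4 h the difference changed by -2.85 (SE 0.51, limma's adjusted p = 0.00221) in Sgk1 (16 of 17 settings), by -2.42 in Tgtp1 (14 of 17 settings), by -2.19 in Iigp1 (12 of 16 settings), by -1.95 in Gbp3 (13 of 16 settings) and by -1.80 in Cd274 (12 of 16 settings). It gained 1.89 in Gpr33 (15 of 16 settings), 1.79 in Lhx2 (16 of 17 settings), 1.77 in Fst (16 of 16 settings), 1.76 in Entpd1 (17 of 17 settings) and 1.66 in Sgpp1 (16 of 17 settings).

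The difference LPS+IFG minus LPS at 2 h holds the absence of listed lipid binding protein as well as interferon gamma. This difference exceeded the ratio of IFG alone by 2.96 (SE 0.44, limma's adjusted p = 0.000147) in Sgk1 (17 of 17 settings), by 2.08 in Id2 (17 of 17 settings), by 1.80 in Crabp2 (8 of 16 settings), by 1.53 in Ccl12 (15 of 17 settings) and by 1.50 in Gar1 (16 of 16 settings). The same quantity was -2.21 in Irgm2 (15 of 16 settings), -2.15 in Trim21 (17 of 17 settings), -2.15 in Irf1 (17 of 17 settings), -2.12 in Lynx1 (13 of 16 settings) and -1.99 in Ifit1 (16 of 17 settings).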

How the results depend on the processing

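Of 48 named genes called between LPS+IFG and LPS, 30 were called under every alternative that gave them a value. Of 44 not called, Fst was called under some, and 57 of all 1479 values turned sign, in 23 genes called in neither setting. The count of features higher with LPS+IFG than with LPS was 88 to 105 with single sets left out and 222 by adjusted p alone. The lower count was 4 to 11 with single sets left out and 72 by adjusted p alone. Scaled spread gave 78 higher and 6 lower and kept 80 of the 109 calls. Fitting only the compared conditions gave 81 higher and 6 lower and kept 86. Named genes not called in that fit were C1ra, Calcrl, Cd40, Gbp4, Il13ra2, Il18, Il6, Procr, Ptger4, Tap2 and Zbp1. Single probes gave 134 higher and 12 lower. The block on the set number (a paired fit) gave 106 higher and 9 lower, with all 109 calls among its 115, and changed no call of the comparisons with LPS+2MA and IFG by over 1.5 times. For the change from 1 h to 2 h it gave 12 higher and 13 lower, from 2 h to 4 h 27 and 51, and against the sum 24 and 42. With a dye term over all arrays the change from 1 h to 2 h had 13 higher and 11 lower, that from 2 h to 4 h 27 and 45, and 23 features were above the sum. Scaled spread left 61 features higher than LPS+2MA, 124 higher than IFG, 2 lower at 2 h than at 1 h, 6 higher and 3 lower at 4 h than at 2 h, and 5 above and 44 below the sum. When only the compared conditions were fitted, which leaves fewer residual degrees of freedom, 17 features were lower than with LPS+2MA, 1 was lower at 2 h than at 1 h, 3 were higher and 1 lower at 4 h than at 2 h, and 10 were below the sum. Arrays with treated RNA in Cy5 alone gave 1 higher and 2 lower for 1 h to 2 h, 12 lower for 2 h to 4 h and 27 above the sum; those in Cy3 alone gave 4 lower, 11 lower and 8 above. Keeping zeros gave 4 lower for 1 h to 2 h. Values in all sets, which tests fewer probes, gave 4 lower for 1 h to 2 h, 16 lower for 2 h to 4 h and 9 above the sum. Single probes gave 5 higher for 1 h to 2 h. With single sets left out, the count lower than IFG was 37 to 82, highest without the third LPS+IFG set. The change from 1 h to 2 h then had 2 to 6 higher and 4 to 8 lower, and that from 2 h to 4 h 15 to 32 lower. Where no construction is named, the cause was not tested. The limits are the small number of sets, the unstated direction and normalization of the ratios, a limit of 6.64 on deposited values, and 753 probes of 16281 at 0 on every array.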

Other observations

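Some genes that rose belong to no list used above. Gar1, a core protein of the small nucleolar ribonucleoproteins that guide pseudouridylation, had log2 ratios of 2.09, 2.37 and 1.89 with LPS+IFG against -0.09, -0.21 and 0.00 with LPS, a difference of 2.22 (SE 0.14, limma's adjusted p = 1.45e-13). Ralgds, an exchange factor that links Ras to Ral, had 3.37, 2.88 and 2.89 with LPS+IFG against 1.30, 0.65 and 0.83 with LPS, a difference of 2.12 (SE 0.22, limma's adjusted p = 8.73e-09). Clec7a (Dectin-1), the macrophage receptor of fungal beta-glucan, had 1.45, 2.03 and 2.03 with LPS+IFG against -0.09, 0.63 and -0.13 with LPS, a difference of 1.70 (SE 0.30, limma's adjusted p = 0.000261). The groups did not overlap in any of the 3, as in 100 of the 101 features called higher. Growth factors that act on other cells were also among them: Kitl, stem cell factor, differed by 1.77, SE 0.29, and Pdgfa, a platelet-derived growth factor chain, by 1.53, SE 0.29. Clec7a, Gar1, Ralgds, Kitl and Pdgfa were chosen after their values were seen.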
